A study of Mus musculus with 48 samples.

Results

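Solute carriers are the membrane proteins that move amino acids, sugars, metals, inorganic ions, organic anions and vitamins across the plasma membrane and the membranes of organelles. In the liver they take up and release the substrates of nitrogen, lipid and carbohydrate metabolism, and the hepatocyte is the main cell that carries them. A transcript rhythm in such a gene is a change in the amount of messenger RNA over the day and says nothing by itself of protein or transport.

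The data described here are the 88 solute carrier genes expressed well in mouse liver, of 282 genes whose symbol follows the solute carrier pattern and of 18194 genes with a single symbol on the array. They were chosen by symbol, without the mitochondrial Slc25 family and without 8 further genes (Slc2a2, Slc10a1, Slc34a2, Slc37a4, Slc40a1, Slc30a1, Slc30a10 and Slc39a14), and by level: a gene took the values of its brightest probe set, and it was kept when the mean of its 48 linear values was 1000 or more. The level chose the members and is not a result about them. Just inside the threshold lay Slc4a2 with a mean of 1068, Slc2a8 with 1089 and Slc11a1 with 1091, and just outside it Slc31a2 with 995, Slc39a10 with 993 and Slc10a7 with 977. All 88 members were measured on every array, and none was dropped by a further filter on low values.

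The livers came from male C57BL/6J mice aged 6 weeks, which had been kept in a 12 h light and 12 h dark cycle and then moved to constant darkness. Every hour, RNA from the livers of 3 to 5 mice was combined into 1 pool and read on 1 Affymetrix array, from CT18 to CT65, where CT (circadian time) 0 is subjective dawn and CT12 subjective dusk. The second cycle is CT42 to CT65 and the first is CT18 to CT41. Each hour of the 48 had 1 pool, and the mice of a pool cannot be told apart in its value. All groups are therefore times of 1 collection in 1 strain and sex, with no untreated or mutant reference. In whole liver, a change in the amount of RNA per cell cannot be told apart from a change in the share of cells of a type.

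Array medians ran between 95.2 and 110.9, and the mean of 49.5% of all probe sets was below 100. The 75th percentile was between 797.1 and 944.8 in the last 6 pools, CT60 to CT65, and between 891.3 and 1099.4 in CT18 to CT59, and the array at CT61 had the lowest median correlation with the others (0.984). The clock genes peaked in their known order, Nr1d1 at CT6.63, Dbp at CT10.2, Per2 at CT13.9 and Arntl at CT22.3. All 6 hepatocyte markers were measured with means from 149368 to 838203. The summed level of the 3 measured pancreatic acinar markers was between 5163 and 83686 in the second cycle and between 4328 and 244087 in the first, and none of them was called rhythmic. Of the members, 53 had their lowest pool among the last 6, which is 60.2% against 45.7% of all genes with a mean of 1000 or more and 16.1% of all probe sets. Results that rest on those 6 pools are given with and without them.

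The promoters of 4 members are printed here because they hold the clock motifs that were searched and belong to members with a strong 24 h rhythm and different peak times. The E-box, CACGTG, is bound by the CLOCK and BMAL1 pair. The D-box, TTANGTAA, is bound by DBP and its relatives, and the ROR element, TAGGTCA, by the REV-ERB and ROR receptors. Both strands were searched in RefSeq windows of 300 bases on GRCm38.p6, which run from 250 bases before to 50 bases after each transcript start, and capitals mark the motif. The Slc20a1 window lies at chr2:129198523-129198822 (plus strand) with E-boxes 175 and 22 bases before the start. The Slc16a12 window at chr19:34747279-34747578 (minus strand) holds an E-box 240 bases and a D-box match 76 bases before the start. The Slc16a1 window at chr3:104638414-104638713 (plus strand) has an E-box 200 bases before it, and the first Slc45a3 window at chr1:131962665-131962964 (plus strand) has a D-box match 219 bases before it.
Slc20a1: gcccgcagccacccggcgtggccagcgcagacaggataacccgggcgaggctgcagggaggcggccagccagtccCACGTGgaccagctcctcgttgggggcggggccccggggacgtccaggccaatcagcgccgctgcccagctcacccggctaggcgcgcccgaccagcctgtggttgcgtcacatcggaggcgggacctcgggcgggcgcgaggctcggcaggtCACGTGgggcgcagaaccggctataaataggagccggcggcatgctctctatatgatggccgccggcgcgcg
Slc16a12: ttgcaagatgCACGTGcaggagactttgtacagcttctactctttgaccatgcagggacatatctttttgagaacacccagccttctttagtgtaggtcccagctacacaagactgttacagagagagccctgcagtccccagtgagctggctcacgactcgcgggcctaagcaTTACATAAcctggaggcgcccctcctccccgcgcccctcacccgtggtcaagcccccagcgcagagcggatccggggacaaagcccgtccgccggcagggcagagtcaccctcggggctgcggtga
Slc16a1: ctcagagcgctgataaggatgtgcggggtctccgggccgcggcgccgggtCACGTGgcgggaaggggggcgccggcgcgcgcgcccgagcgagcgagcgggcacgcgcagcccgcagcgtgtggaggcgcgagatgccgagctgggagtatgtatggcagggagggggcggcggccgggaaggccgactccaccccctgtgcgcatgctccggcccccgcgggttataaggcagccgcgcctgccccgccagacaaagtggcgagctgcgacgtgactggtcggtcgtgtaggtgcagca
Slc45a3: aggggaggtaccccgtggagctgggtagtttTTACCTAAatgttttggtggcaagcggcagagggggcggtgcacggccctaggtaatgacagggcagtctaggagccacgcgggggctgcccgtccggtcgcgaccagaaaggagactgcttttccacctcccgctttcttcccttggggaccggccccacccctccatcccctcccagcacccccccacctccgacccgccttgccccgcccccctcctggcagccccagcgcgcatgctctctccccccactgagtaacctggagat
RefSeq windows were found for 69 of the 88 members, 98 windows in all. An E-box lay in 16.3% of the members' windows and in 7.15% of all 32851 windows, a D-box in 4.08% and 2.32%, and a ROR element in 3.06% and 2.61%. Among the 31 called members with a window, 5 held an E-box, 2 a D-box and 2 a ROR element, and among the 38 members with a window that were not called 24 h, 10 held an E-box, 2 a D-box and 1 a ROR element. In these counts the E-box was not more frequent in the called members, and the difference was not tested. Slc20a1 and Slc16a1, both with an E-box, peaked 11.3 h and 23.1 h after subjective dawn. They were printed for their different peak times, so this contrast is not a result about the motif. Of the other called members with an E-box, Slc39a8 peaked at CT2.74, Slc49a4 at CT3.31 and Slc16a12 at CT13.7. A match describes these letters and does not show binding.

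Rhythms were called by Fisher's G-test and by a fit of cosine curves, each with a q-value, the expected share of false calls, under 0.05 over all 45101 probe sets. By both tests, 39 of the 88 members had a 24 h rhythm, which is 44.3%. The background was 9.98% of all probe sets and 31.5% of the genes with a mean of 1000 or more, the population that the level rule draws from. Taken alone, the cosine fit passed in 86 members and the G-test in 45, so the G-test mostly set which members were called. A 12 h rhythm was called in 2 members, with a background of 0.772% of all probe sets and 2.74% of those genes. An 8 h rhythm was called in 0 members by both tests, with a background of 0.264% and 0.919%, and limma called 6. An unadjusted p under 0.05 for the 8 h pair in limma was found for 32 members, which is 36.4%, against 34.9% of genes with a mean of 1000 or more and 12.9% of all probe sets.

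Amplitudes and peak times came from a limma fit with a linear trend and waves of 24, 12 and 8 h. Its 24 h component passed in 68 members (77.3%), with a background of 47.4% of all probe sets and 69.7% of genes with a mean of 1000 or more. Without CT60 to CT65 it passed in 62 members, and 59 of the 68 remained, against a background of 21.9% and 61.3%. All 39 members called by both tests had a 24 h component in limma with and without those 6 pools, and 36 of them had one in each cycle taken alone. These 39 were chosen by their rhythm in the same pools, so the counts are not a separate test of it. No background share was taken for single cycles, and 1 cycle cannot tell a recurring wave from a single rise and fall. The median amplitude was 0.21 on the log2 scale over all members, 0.15 over genes with a mean of 1000 or more and 0.047 over all probe sets. Among the 39 called members the median peak-to-trough ratio of the fitted 24 h wave was 1.67, and it reached 1.5 in 30 members and 2 in 12 members of the 88. Between the cycles, the peak of a called member moved by a median of 0.899 h, and 32 of 39 moved by under 2 h.

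**Figure D1:**
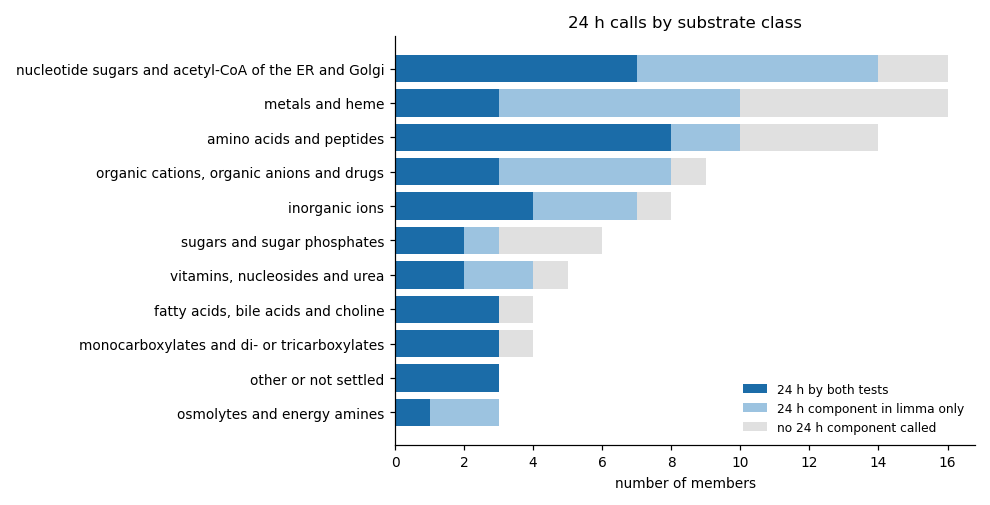
Members by substrate class, with the number called 24 h by both tests (dark), those with a 24 h component in limma alone (light) and those with neither (grey) on the horizontal axis. Amino acid carriers had 8 of 14 called and metal and heme carriers 3 of 16, against 31.5% of genes with a mean of 1000 or more. Differences between classes were not tested.

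Amino acid carriers gave the largest group of called members, 8 of 14. For this and every class below, the background was 31.5% of genes with a mean of 1000 or more and 9.98% of all probe sets. The classes are small, and differences between them were not tested. Of the 8, 6 peaked in the subjective day, as did 1333 of the 2092 called genes with a mean of 1000 or more. The widest swing of the class was that of Slc7a2, which encodes CAT2, the carrier that takes up arginine, lysine and ornithine in hepatocytes. Its intensity was 14561 at CT64, a median of 45607 and 152527 at CT32. The highest pool of each cycle came late in the subjective day, 127154 at CT59 in the second cycle and 152527 at CT32 in the first, and low pools fell both in the hours after subjective dusk, as at CT39 and CT64, and around subjective dawn, as at CT25. Its 24 h amplitude was 1.02 ± 0.07 (log2, ± SE, n = 48 pools), a 4.10-fold peak-to-trough ratio, with the peak at CT7.96 ± 0.271 and an adjusted p of 1.76e-14. The wave was not a plain cosine, since a 12 h component of 0.58 ± 0.07 was also present (adjusted p = 1.02e-06). The other 3 Slc7a2 probe sets with a mean of 1000 or more peaked at CT9.02, CT9.65 and CT8.17 and had correlations of 0.874, 0.749 and 0.857 with it over the 48 pools.

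The sodium-coupled neutral amino acid carriers Slc38a2, Slc38a3 and Slc38a4 were all called, and their correlations with each other over the 48 pools, which share arrays, lay between 0.776 and 0.851. Slc38a2 (SNAT2, a system A carrier of alanine and other small neutral amino acids) had 7011 at CT62, a median of 19383 and 50583 at CT37, and its 24 h wave peaked at CT8.92 ± 0.449 with a ratio of 2.37 (adjusted p = 4.75e-08). Slc38a3 (SNAT3, the system N carrier of glutamine and histidine) had 50505 at CT61, a median of 88607 and 147228 at CT59, with a peak at CT8.95 ± 0.417 and a ratio of 2.08 (adjusted p = 8.84e-09). Slc38a4 (SNAT4, a further system A carrier) had 120853 at CT39, a median of 162720 and 260116 at CT33, with a peak at CT7.88 ± 0.319 and a ratio of 1.57 (adjusted p = 1.89e-12). All 3 were high in the late subjective day of both cycles. The peaks of Slc38a2 and Slc38a3 differed by -0.037 ± 0.388 h (adjusted p = 0.924), and Slc38a3 peaked 1.08 ± 0.383 h later than Slc38a4 (adjusted p = 0.00792). In Slc38a3 the fitted peak was CT7.24 in the second cycle and CT9.94 in the first. The second cycle holds CT61 to CT65, where Slc38a3 had between 50505 and 60474. Its 24 h wave did not pass as different between the cycles. A second Slc38a4 probe set with a mean of 121102 had a 24 h amplitude of only 0.060, which did not pass (adjusted p = 0.0593). A second Slc38a2 probe set with a mean of 2710 had an amplitude of 0.24, against 0.62 in the first, and passed (adjusted p = 7.85e-05). It peaked at CT7.07, 1.84 h before the first, a wider gap than the differences between these genes given above. Slc38a10, whose transported substrates are less settled, had a weak wave with an amplitude of 0.15 ± 0.036 and a peak at CT7.63 ± 0.967.

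Slc1a2 encodes GLT-1, a glutamate carrier that in liver is found in hepatocytes around the central vein. Its probe set had 3199 at CT25, a median of 6076 and 13453 at CT60, with the highest pools around subjective dusk, 13453 at CT60 in the second cycle and 11878 at CT37 in the first. The amplitude was 0.70 ± 0.061 and the ratio 2.65, with a peak at CT10.7 ± 0.308 (adjusted p = 1.61e-11). A second bright Slc1a2 probe set differed, with an amplitude of 0.16, a peak at CT16.3 and a correlation of 0.0908 with the first, so the rhythm holds for 1 of these probe sets at this size. Slc43a3, which is placed here by its family although purine nucleobases are its described substrate in human cells, peaked near dusk at CT12.5 ± 0.529 with an amplitude of 0.25 ± 0.037. The lysosomal amino acid exporter Slc66a1, kept outside the classes, was called as well, so the class would also hold 8 of 14 with Slc66a1 in place of Slc43a3.

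The heavy chains of the heteromeric amino acid carriers differed in their calls. Slc3a1 (rBAT, the partner of the cystine carrier of the kidney) had 3694 at CT60, a median of 6122 and 10242 at CT22 and was called 24 h with an amplitude of 0.20 ± 0.045 and a peak at CT21.9 ± 0.817 (adjusted p = 0.00255). Slc3a2 (4F2hc, the partner of many light chains) had 893 at CT61, a median of 3156 and 4051 at CT42, and its 24 h component did not pass over all pools (adjusted p = 0.245), whereas it passed in CT42 to CT65 alone (adjusted p = 0.000483). Without CT60 to CT65 it did not pass (adjusted p = 0.125), and its values at CT61 to CT65 lay between 893 and 1275. The difference between the heavy chains was not tested. The light chains Slc7a5, Slc7a6, Slc7a7, Slc7a8, Slc7a9 and Slc7a11 were not members, since their means lay between 46.2 for Slc7a7 and 94.0 for Slc7a6. The remaining amino acid and peptide carriers were not called by both tests. Slc6a9 (the glycine carrier GlyT1) and Slc16a10 (the aromatic amino acid carrier TAT1) had a 24 h component in limma alone, with peaks at CT10.4 ± 0.785 and CT9.89 ± 0.887. A second bright Slc16a10 probe set had an amplitude of 0.015, which did not pass (adjusted p = 0.973). Slc38a6, the lysosomal arginine sensor Slc38a9 and the lysosomal carrier Slc15a4 had none over all pools, with adjusted p between 0.105 and 0.399.

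**Figure D2:**
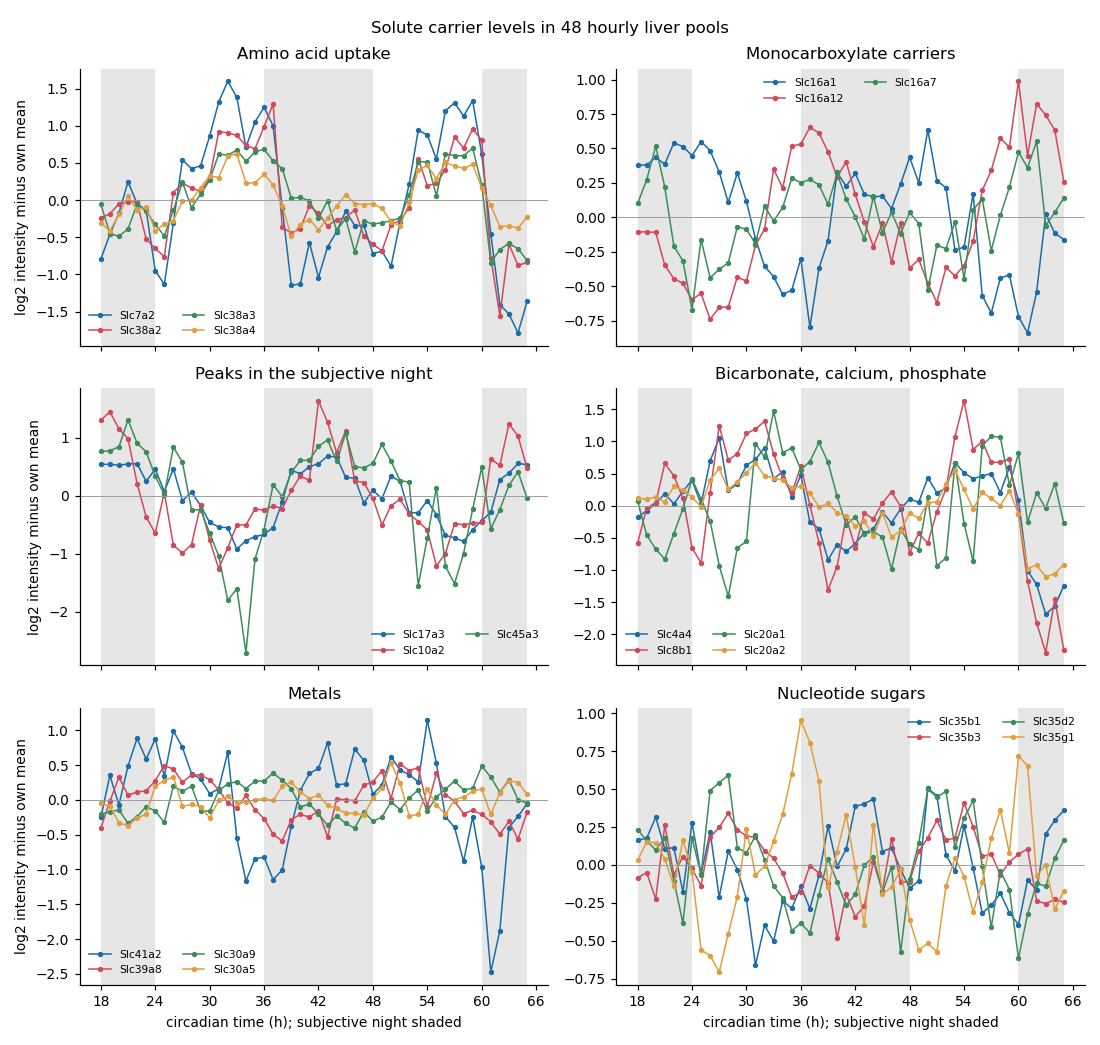
Log2 intensity of 22 members in 48 hourly pools, each minus its own mean, against circadian time in hours, with the subjective night shaded. Slc7a2 and the Slc38 genes are high in the later subjective day of both cycles, Slc16a12 and Slc16a1 run against each other, and several traces reach their lowest point at CT61 to CT65.

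The monocarboxylate carriers of the Slc16 family included the member with the smallest adjusted p and peaked at different times of day. Slc16a12 (MCT12, which carries creatine) had 13427 at CT26, a median of 21002 and 44536 at CT60, highest in the early subjective night and lowest in the morning hours. Its highest pools were 44536 at CT60 in the second cycle and 35308 at CT37 in the first. The amplitude of 0.57 ± 0.025 had the smallest adjusted p of all members (2.29e-20), with a ratio of 2.19 and a peak at CT13.7 ± 0.165, and the peak was CT13.5 in the second cycle and CT13.4 in the first. Slc16a1 (MCT1, which carries lactate, pyruvate and ketone bodies) had 11338 at CT61, a median of 22243 and 31506 at CT50, with 31506 at CT50 in the second cycle and 29695 at CT25 in the first as its highest pools, close to subjective dawn. Its wave peaked at CT23.1 ± 0.291 with a ratio of 1.87 (adjusted p = 3.88e-12). Slc16a1 thus peaked 9.43 ± 0.342 h after Slc16a12 (a difference past the threshold over the 33 pairs compared), and the correlation of these genes over the 48 pools was -0.72. Slc16a7 (MCT2, a further lactate and pyruvate carrier) had 8827 at CT24, a median of 14288 and 20584 at CT62 and peaked at CT14.4 ± 0.552, a difference from Slc16a12 of 0.79 ± 0.556 h that did not pass (adjusted p = 0.177). Slc13a3, the sodium-coupled dicarboxylate carrier of the same class, had no 24 h component (adjusted p = 0.099).

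Members that peaked in the subjective night were fewer, 12 of 39, and included some of the widest swings. Night peaks were also the fewer among called genes with a mean of 1000 or more, 759 of 2092. Slc45a3, of a family of sugar carriers and also known as prostein, had 190.4 at CT34, a median of 1469 and 3059 at CT21. Its low pools lay in the subjective day of each cycle, and the fitted ratio was 4.23 with a peak at CT20.8 ± 0.369 (amplitude 1.04 ± 0.10, adjusted p = 3.43e-10). A second probe set of the gene peaked at CT20.8 as well, with a correlation of 0.944. Slc10a2 (ASBT, the sodium-coupled bile acid carrier of ileum and bile duct cells) had 587 at CT31, a median of 1242 and 4354 at CT42, with 4354 at CT42 in the second cycle and 3818 at CT19 in the first as the highest pools. It peaked at CT18.6 ± 0.316 with a ratio of 3.58 (adjusted p = 4.26e-13). The 4 bile duct markers were dim, with a summed level between 628 and 1068 in the second cycle and between 589 and 960 in the first, and 0 of 4 were called, while 1 had a 24 h component in limma. Their part in the Slc10a2 rhythm was not tested. Slc17a3 (NPT4, an organic anion and urate carrier) had 8922 at CT33, a median of 17659 and 27029 at CT43 and peaked at CT20.5 ± 0.226 with a ratio of 2.30 (adjusted p = 1.47e-16).

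**Figure D3:**
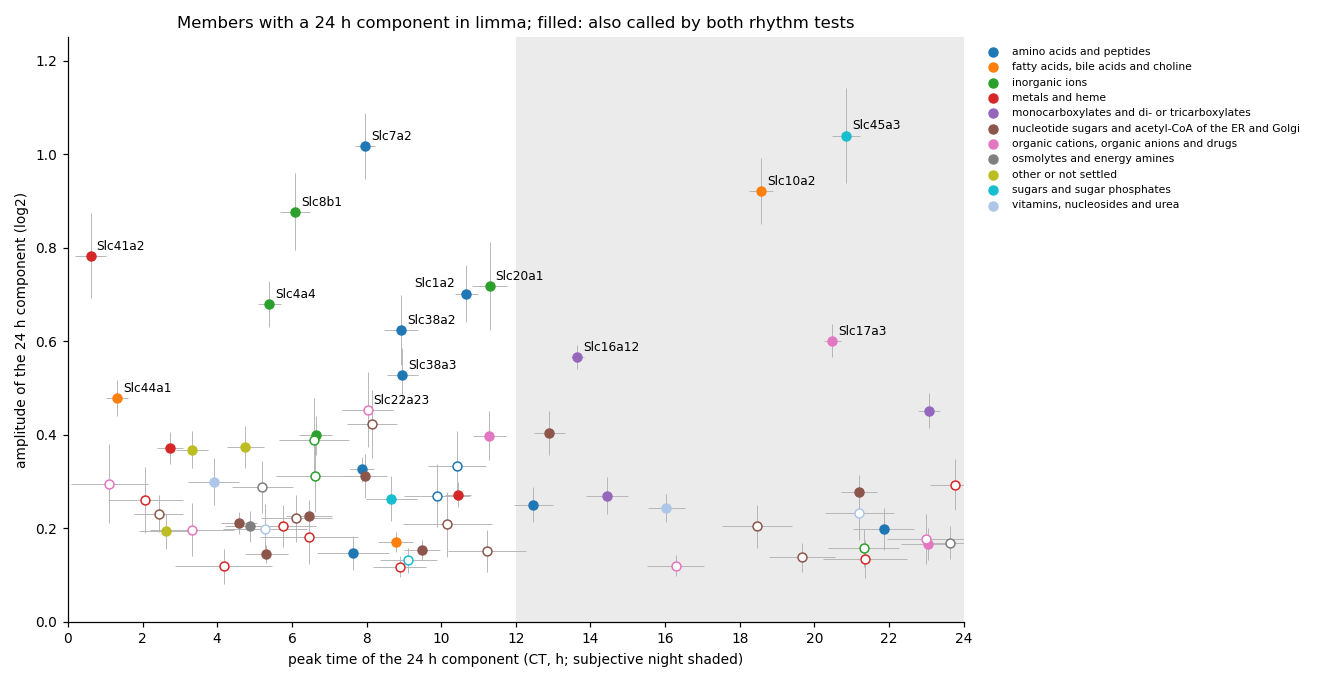
Amplitude of the 24 h component (log2) against its peak time (CT in hours, subjective night shaded) for the 68 members that passed in limma, coloured by substrate class, with standard errors as bars. Filled points were also called by both rhythm tests, and the amplitudes above 0.6 lie mostly in the subjective day, apart from Slc45a3, Slc10a2 and Slc17a3.

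The other organic cation, anion and drug carriers had mixed timing. Slc22a5 (OCTN2, the carnitine carrier) had 1776 at CT25, a median of 3134 and 6430 at CT34 and peaked at CT11.3 ± 0.454. Slc22a30, a rodent organic anion carrier family member, had 39304 at CT35, a median of 54734 and 68291 at CT24 and a small wave with a peak at CT23.0 ± 0.707, 11.7 ± 0.734 h from that of Slc22a5. These 2 were called together with Slc17a3, 3 of 9 in the class. Slc22a23, Slc22a7 (OAT2), Slc22a18, Slc17a1 and Slc17a2 had a 24 h component in limma alone, with amplitudes between 0.12 and 0.45, and those of Slc22a7 and Slc22a18 did not pass without CT60 to CT65 (adjusted p = 0.108 and 0.635). Slc47a1 (MATE1, which exports organic cations into bile) had 22867 at CT63, a median of 31463 and 40530 at CT22 and the smallest 24 h amplitude of the members, 0.02 ± 0.032 (adjusted p = 0.904).

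Carriers of inorganic ions had 4 of 8 members called. All 4 peaked in the subjective day, as did 1333 of the 2092 called genes with a mean of 1000 or more. Slc8b1 (NCLX, the sodium and calcium exchanger of the mitochondrial inner membrane) had 325 at CT63, a median of 1632 and 4912 at CT54, highest around the middle of the subjective day. Its wave had a ratio of 3.37 and a peak at CT6.08 ± 0.392 (adjusted p = 1.35e-10), with a 12 h component of 0.60 ± 0.084 beside it (adjusted p = 1.94e-05). Slc4a4 (NBCe1, the sodium bicarbonate cotransporter) had 1249 at CT63, a median of 4388 and 8373 at CT27, with a ratio of 2.56 and a peak at CT5.39 ± 0.304 (adjusted p = 8.98e-14). The other 3 bright Slc4a4 probe sets peaked at CT4.88, CT4.85 and CT5.86, with correlations between 0.902 and 0.959 to it. The phosphate carriers Slc20a1 (PiT-1) and Slc20a2 (PiT-2) were both called at different hours. Slc20a1 had 1434 at CT28, a median of 3541 and 10579 at CT33 and peaked at CT11.3 ± 0.461, and Slc20a2 had 1606 at CT63, a median of 3659 and 5497 at CT31 and peaked at CT6.64 ± 0.436. The difference was 4.66 ± 0.598 h (adjusted p = 1.66e-14). A second bright Slc20a2 probe set had an amplitude of 0.10, which did not pass (adjusted p = 0.127). Slc12a7 (KCC4), Slc12a2 (NKCC1) and the anion exchanger Slc4a2 (AE2) passed in limma alone, Slc4a2 not without the last 6 pools (adjusted p = 0.0509). Slc26a1, the sulfate carrier, had 3304 at CT61, a median of 11410 and 16610 at CT18, with no 24 h component over all pools (adjusted p = 0.591) and a component that passed without CT60 to CT65 (adjusted p = 0.0498).

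Metal and heme carriers were the class with the lowest share called, 3 of 16 with a 24 h and 1 with a 12 h rhythm. The background for 24 h was 31.5% of genes with a mean of 1000 or more, and the difference was not tested. Slc41a2, a magnesium carrier, had 916 at CT61, a median of 5910 and 11255 at CT54, with 11255 at CT54 in the second cycle and 10136 at CT26 in the first as its highest pools. It peaked at CT0.607 ± 0.414 with a ratio of 2.96 (adjusted p = 2.86e-08). Slc39a8 (ZIP8, an importer of zinc and manganese) had 3962 at CT38, a median of 5957 and 8560 at CT51 and peaked at CT2.74 ± 0.346 with a ratio of 1.67 (adjusted p = 3.11e-11). Slc30a9, of the zinc exporter family, had 7186 at CT46, a median of 9443 and 13319 at CT60 and peaked at CT10.5 ± 0.343, the opposite side of the subjective day from Slc41a2. The copper importer Slc31a1 (CTR1) had 18321 at CT61, a median of 22856 and 26656 at CT26 and an amplitude of 0.03 ± 0.022, which did not pass (adjusted p = 0.367). A second bright Slc31a1 probe set differed, with an amplitude of 0.20 ± 0.038, a peak at CT17.1 and an adjusted p of 0.000198, and its correlation with the first was -0.11. The call also changed with all arrays at the same 75th percentile (adjusted p = 0.00162) and with both probe sets averaged (adjusted p = 1.66e-05), so a 24 h component of Slc31a1 depended on the probe set and the scaling. Of the other 11 members, 7 had a 24 h component in limma alone: the iron carrier Slc11a2 (DMT1), the zinc importers Slc39a1, Slc39a4, Slc39a7 and Slc39a9, Slc30a6 and the heme carrier Slc48a1. Those of Slc39a4, Slc39a9, Slc30a6 and Slc48a1 did not pass without CT60 to CT65. Slc11a1 (NRAMP1, found in macrophages), Slc30a4, Slc30a7 and Slc39a11 had none.

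The 2 members with a 12 h rhythm by both tests work in the Golgi. Slc30a5 (ZnT5, which loads zinc into the secretory pathway) had 5699 at CT21, a median of 7367 and 10668 at CT50, with its highest pool at CT50 in the second cycle and at CT26 in the first, and a 12 h amplitude of 0.16 ± 0.027 (adjusted p = 0.000401), while its 24 h component did not pass (adjusted p = 0.589). Slc35d2, a nucleotide sugar carrier, had 5025 at CT60, a median of 7675 and 11606 at CT28 and a 12 h amplitude of 0.23 ± 0.038 (adjusted p = 0.000225) beside a 24 h amplitude of 0.23 ± 0.04 (adjusted p = 6.11e-05). The 12 h waves peaked at CT2.25 ± 0.320 and CT4.81 ± 0.321 and again 12 h later. In limma a 12 h component passed in 23 members, with a background of 4.89% of all probe sets and 17.1% of genes with a mean of 1000 or more. Of these, 15 were members called 24 h, among them Slc38a4, Slc7a2, Slc8b1 and Slc17a3. An 8 h component in limma passed in 6 members (background 1.35% and 5.14%), Slc35f5, Slc30a5, Slc66a2, Slc15a4, Slc35a3 and Slc7a2, with adjusted p between 0.00599 and 0.0322.

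Carriers of nucleotide sugars, sulfate donor and acetyl-CoA in the endoplasmic reticulum and Golgi, which supply glycosylation and sulfation, had 7 of 16 members called 24 h, and 14 passed in limma. Slc35g1, whose substrate is less settled, had 2493 at CT27, a median of 4010 and 7879 at CT36 and peaked at CT12.9 ± 0.422 with a ratio of 1.75. Slc35b1, which in human cells exchanges ATP and ADP across the endoplasmic reticulum membrane, had 9771 at CT31, a median of 15196 and 21904 at CT50 and peaked at CT21.2 ± 0.484, the late subjective night. Slc35b2 and Slc35b3 carry the sulfate donor PAPS into the Golgi and peaked at CT7.97 ± 0.583 and CT4.58 ± 0.471, a difference of 3.38 ± 0.785 h (adjusted p = 3.00e-05). Slc35b3 had 2418 at CT40, a median of 3395 and 4485 at CT54 and the smaller ratio, 1.34, beside 1.54 for Slc35b2. Slc35e2, Slc35f5 and the UDP-N-acetylglucosamine carrier Slc35a3 peaked at CT6.45 ± 0.617, CT5.32 ± 0.574 and CT9.48 ± 0.489 with ratios between 1.22 and 1.37. For Slc35a3, other probe sets with means of 4670 and 1310 did not pass (adjusted p = 0.214 and 0.215). The dimmer of them had a correlation of 0.0483 with the first, the lowest among the bright other probe sets of called members. A set with a mean of 2462 passed (adjusted p = 0.0335) but peaked at CT14.9, so the peak at CT9.48 was that of the brightest set. Slc35d1, which carries UDP-glucuronic acid and UDP-N-acetylgalactosamine, had 8960 at CT65, a median of 26439 and 46745 at CT31, and it passed in limma (ratio 1.80, adjusted p = 6.44e-05) but not by both tests. The same held for Slc35a1 (CMP-sialic acid), Slc35a2 (UDP-galactose), Slc35a5, Slc35e3 and the acetyl-CoA carrier Slc33a1, with amplitudes between 0.14 and 0.22. Slc35e3 did not pass without CT60 to CT65 (adjusted p = 0.136). Slc35e1 and Slc35f6 had no 24 h component.

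Carriers of fatty acids, bile acids and choline had 3 of 4 members called. Slc44a1, the choline carrier, had 3936 at CT62, a median of 7548 and 14126 at CT27, with 9690 at CT52 in the second cycle and 14126 at CT27 in the first as its highest pools, and peaked at CT1.32 ± 0.296 with a ratio of 1.94 (adjusted p = 2.29e-12). Slc27a2 (FATP2, a fatty acid carrier and very long chain acyl-CoA synthetase) had 204212 at CT65, a median of 251252 and 326744 at CT31 and a narrow wave with a ratio of 1.27 and a peak at CT8.78 ± 0.471 (adjusted p = 1.27e-07). Slc27a5 (FATP5, also the bile acid CoA ligase) had 181214 at CT62, a median of 221993 and 246505 at CT45, a narrow range, and no 24 h component (adjusted p = 0.102). Its 12 h component passed with a small amplitude of 0.08 ± 0.017 (adjusted p = 0.0115).

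Among sugar carriers, 2 of 6 were called, Slc45a3 and Slc2a9 (GLUT9, a urate carrier by function), the second with a peak at CT8.66 ± 0.687 and an amplitude of 0.26 ± 0.048. Slc2a1 (GLUT1, the glucose carrier of red cells and endothelium) had 2281 at CT61, a median of 5945 and 9065 at CT37 and no 24 h component over all pools (adjusted p = 0.409), nor had Slc2a8 and Slc5a2, while Slc2a1 passed in CT42 to CT65 alone (adjusted p = 0.00326). Without CT60 to CT65, Slc2a1 did not pass (adjusted p = 0.361). The lysosomal sialic acid carrier Slc17a5 passed in limma alone. Osmolyte carriers had 1 of 3 called. Slc6a12 (BGT1, which carries betaine) had 3278 at CT62, a median of 5114 and 7272 at CT26 and peaked at CT4.89 ± 0.672, the taurine carrier Slc6a6 passed in limma alone with a peak at CT5.21 ± 0.817, and Slc6a13 (GAT2) had 12622 at CT62, a median of 21624 and 27006 at CT22. Slc6a13 passed both tests at the longest period searched, 30.0 h, outside the window of 24 h rhythms, as did Slc11a2 and Slc29a1. Slc5a2 passed both at 19.2 h.

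Of the vitamin and nucleoside carriers, 2 of 5 were called. Slc19a2, the thiamine carrier, had 7592 at CT61, a median of 20981 and 32606 at CT31 and peaked at CT3.90 ± 0.683 with a ratio of 1.51 (adjusted p = 4.30e-05). Slc46a3, a lysosomal carrier, had 9495 at CT48, a median of 11910 and 16218 at CT36 and peaked in the subjective night at CT16.0 ± 0.485 with a ratio of 1.40 (adjusted p = 4.38e-08). The nucleoside carrier Slc29a1 (ENT1) and the folate carrier Slc46a1 passed in limma alone, Slc46a1 not without the last 6 pools (adjusted p = 0.255), and Slc23a1 (the vitamin C carrier SVCT1) did not pass. All 3 members kept outside the classes were called. Slc66a1 (PQLC2, which exports cationic amino acids from lysosomes) had 1532 at CT61, a median of 3045 and 4451 at CT55 and peaked at CT4.75 ± 0.50 with a ratio of 1.68 (adjusted p = 6.18e-08). Slc66a2 had 9262 at CT46, a median of 14894 and 21561 at CT26 and peaked at CT2.63 ± 0.738, and Slc49a4 peaked at CT3.31 ± 0.429.

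The called members peaked mostly in the subjective day, 27 between CT0 and CT12 and 12 between CT12 and CT24, and 21 of them between CT4 and CT12. In bins of 4 h from CT0, 15.4%, 30.8%, 23.1%, 10.3%, 5.13% and 15.4% of the 39 peaked, against 16.3%, 30.5%, 16.9%, 13.2%, 12.5% and 10.6% of the 2092 called genes with a mean of 1000 or more. The shares of the members lay above those of the genes at CT8 to CT12 and CT20 to CT24 and below them at CT12 to CT16 and CT16 to CT20, where the last share stands for 2 genes, and these differences were not tested. Of 33 pairs of called members within the same family, from 20 genes in 6 families, the peak times of 24 pairs differed at an adjusted p under 0.05 and those of 9 pairs did not, which does not show that they peak at the same hour. The Slc35 family gave 21 of the 33 pairs and 17 of the 24, and the other 5 families 12 pairs, of which 7 differed. Pairs from different families were not compared, so these counts say nothing particular to families. Each pair compared 1 probe set per gene. Other bright probe sets of Slc35a3 and Slc66a2 with a 24 h component peaked 5.40 h and 2.63 h from the sets used. Slc66a1 and Slc66a2 differed by 2.12 h. Of 14 such other sets of called members, 10 peaked within 2 h, so the counts describe probe sets.

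**Figure D4:**
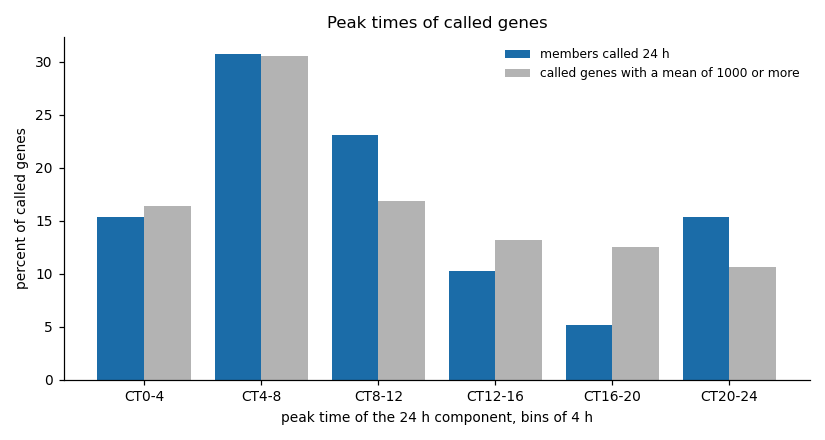
Share of called genes in percent against the peak time of the 24 h component in bins of 4 h, for the 39 members (blue) and the 2092 called genes with a mean of 1000 or more (grey). Both have their highest share at CT4 to CT8, with 30.8% of members and 30.5% of genes.

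Other probe sets for the same genes gave a second reading from the same pools and arrays. The choice of members used only their means, to find the brightest set of each gene. The called members compared here were called on that brightest set. Of the members, 47 had at least 1 further probe set, and 33 of these 93 sets had a mean of 1000 or more. For the 11 called members with such a bright set, 14 of the 20 sets had a 24 h component in limma, a share close to the 69.7% of all genes with a mean of 1000 or more, and 10 of these 14 peaked within 2 h of the first. The median correlation over the 48 pools was 0.766. Probe sets of a gene can read different transcript ends, and which transcripts they read was not examined.

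The 24 h wave itself differed between the second and the first cycle in 7 members by the interaction in limma, against a background of 1.86% of all probe sets and 5.58% of genes with a mean of 1000 or more, and in 0 members without CT60 to CT65. They were Slc29a1, Slc5a2, Slc3a2, Slc48a1, Slc22a30, Slc22a18 and Slc22a5, of which Slc22a5 and Slc22a30 were called 24 h over all pools. Slc22a5 had an amplitude of 0.20 in the second cycle and 0.51 in the first, and Slc22a30 of 0.054 and 0.24.

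Levels in the second cycle were set against those in the first at matched hours of the day. Of the 88 members, 7 were higher and 45 lower in the second cycle at an adjusted p under 0.05, with a median difference of -0.14 on the log2 scale. The background over genes with a mean of 1000 or more was 12.8% higher and 34.5% lower with a median of -0.06, and over all probe sets 42.3% higher and 11.2% lower with a median of 0.03. Slc5a2 had the largest positive difference, with mean log2 levels of 10.9 in the second cycle and 10.6 in the first (difference 0.32 ± 0.077), but the difference was 0.16 without CT60 to CT65 (adjusted p = 0.0350), where its highest pool lay. Slc12a7 had the largest negative one, with 11.5 in the second cycle and 12.1 in the first (difference -0.62 ± 0.14), and -0.42 without those pools (adjusted p = 0.0245). Slc33a1 was higher by 0.24 over all pools and by 0.22 without CT60 to CT65, and Slc16a12 by 0.16 in both. Slc20a2 was lower, with a difference of -0.47 over all pools and -0.33 without those pools.

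These counts depended on the last 6 pools and on the scaling. Without CT60 to CT65, which leaves those hours of the day with 1 pool each, 6 members were higher and 16 lower with a median of -0.06, and 15 of the 45 remained lower. The background was then 7.78% higher and 18.3% lower over genes with a mean of 1000 or more, and 31.3% and 6.55% over all probe sets. With all arrays scaled to the same 75th percentile, which moved the median of all probe sets to 0.13, 17 members were higher and 25 lower with a median of -0.04, and the background was 33.4% higher and 18.6% lower over genes with a mean of 1000 or more, and 65.8% and 5.7% over all probe sets. Quantile normalization gave 7 higher and 21 lower with a median of -0.06, against a background of 17.6% higher and 16.5% lower over those genes and 11.3% and 6.1% over all probe sets. The lower 75th percentile of the arrays at CT60 to CT65 moved with these differences, and its part in them beyond the scaling alternatives was not tested. Of the marker lists, the 6 endothelial markers had a median difference of -0.16 between the cycles, with 3 lower and 1 higher, a summed level between 23693 and 31473 in the second cycle and between 19786 and 31552 in the first, and 4 of 6 called 24 h. Their part in the members' levels was not tested. The 6 hepatocyte markers had a median difference of -0.0064, with 1 lower and 0 higher, a summed level between 3245820 and 3584350 in the second cycle and between 3292500 and 3529880 in the first, and 2 of 6 called 24 h. Markers of Kupffer cells, lymphocytes and neutrophils had median differences of 0.022, 0.034 and 0.048, with 0 lower and 2, 3 and 2 higher. The remaining lists had medians between -0.024 (stellate cell, 2 lower and 1 higher) and 0.049 (pancreatic acinar, 0 lower and 0 higher).

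**Figure D5:**
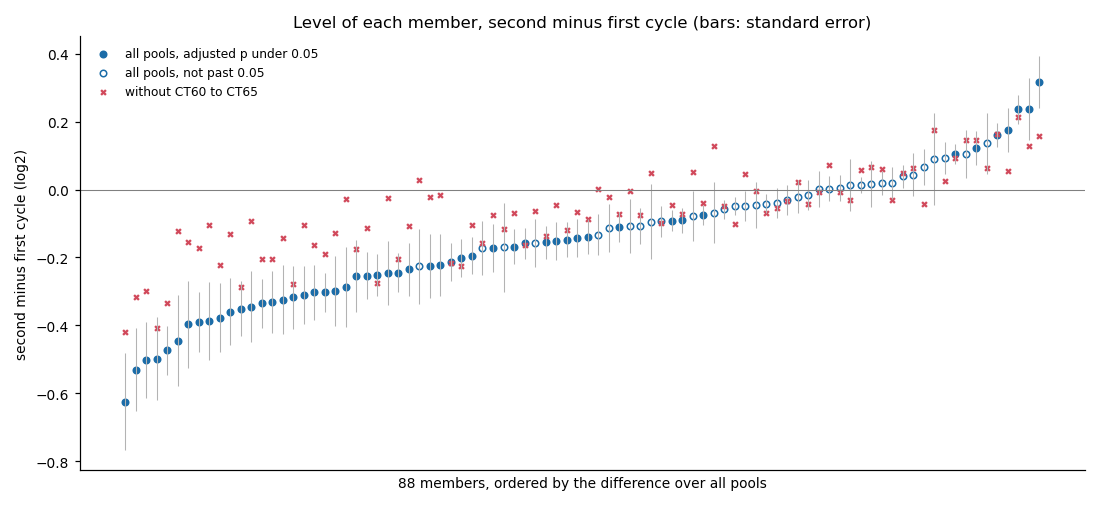
Difference of the mean log2 level between the second and the first cycle for the 88 members in order of size, with standard errors, filled where the adjusted p is under 0.05, and crosses for the same difference without CT60 to CT65. Most members at the low end lie nearer 0 without those pools, and the differences run between -0.62 and 0.32 over all pools.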

How the data were processed

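The deposited table holds linear intensities of 45101 probe sets in 48 pools. The authors state that they extracted them with GCRMA, while the labels name MAS5 without a version, so the method is taken from the authors. A probe set was named through the platform annotation when it gave 1 gene symbol (34958 probe sets, with several symbols for 932 and none for 9211), and all 88 members matched RefSeq by gene ID. All tests ran on log2 intensities.

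The G-test of Fisher took 23 Fourier frequencies. For the cosine fit, series were detrended by a line, periods of 4 to 30 h were searched every 0.1 h, and 1000 scramblings of the pools gave the p-values. Storey q-values were taken over all probe sets, and periods of 20 to 30, 10 to 14 and 7 to 9 h made the classes. Components of 24, 12 and 8 h, their interaction with cycle and the level difference between cycles were tested in limma with Benjamini-Hochberg adjustment over all probe sets. Pairwise differences in peak time within a family were set against their standard errors (normal test), with Benjamini-Hochberg adjustment over 33 pairs. With 1 pool per hour, p-values measure the spread between pools. The scripts recovered known rhythms when tested on simulated data. The simulated noise was independent between pools, so that check does not cover a change shared by arrays, as at CT60 to CT65.

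Alternatives were quantile normalization, a common 75th percentile, linear values, 50 added before log2, probe sets with a mean of 100 or more, other detrending, all probe sets of a gene averaged, member levels of 500 and 2000, Benjamini-Hochberg adjustment, each cycle alone and CT60 to CT65 left out. The members, substrate classes and lists were chosen with earlier results of these data known. Named with full values by a fixed rule were the 12 members with the smallest G-test p, the 8 with the largest amplitude, those with a 12 h call, the brightest and the most significant called member of each class and the heavy chains, and other members were singled out after their values were seen. Software was limma 3.58.1 under R 4.3.3, and scipy 1.17.1, numpy 2.4.6, pandas 2.3.3 and matplotlib 3.10.9 under Python 3.11.15.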

Additional observations from a re-analysis of the deposited data

Results flagged for a closer look

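The 24 h wave differed between the second and the first cycle in 7 members by the interaction in limma at an adjusted p under 0.05. For Slc29a1 (adjusted p = 0.00996) the amplitude was 0.40 in the second cycle and 0.37 in the first, with peaks at CT0.295 and CT18.9. For Slc5a2 (adjusted p = 0.0241) the amplitude was 0.26 in the second cycle and 0.10 in the first. For Slc3a2 (adjusted p = 0.0255) it was 0.59 in the second cycle and 0.15 in the first, for Slc48a1 (adjusted p = 0.0328) 0.40 and 0.12, and for Slc22a18 (adjusted p = 0.0483) 0.48 and 0.032. It ran the other way for Slc22a30 (adjusted p = 0.0466), with 0.054 in the second cycle and 0.24 in the first, and for Slc22a5 (adjusted p = 0.0492), with 0.20 and 0.51. Without CT60 to CT65, 0 of the 88 members passed in limma, the smallest adjusted p was 0.637, and 12 had an unadjusted p under 0.05. Slc3a2, Slc22a18 and Slc29a1 had their lowest pool at CT61 and Slc48a1 at CT65, and Slc5a2 had its highest at CT61.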

How the results depend on the processing

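The number of members called 24 h by both tests was 39 and lay between 36 and 45 under the other tests and scalings, and that with a 24 h component in limma was 68 and lay between 52 and 73. With the level for membership at 2000 the counts were 33 and 58 in a smaller set, and at 500 they were 44 and 80 in a larger one. Of the 39, 34 were called with quantile normalization, 38 on linear values and 36 with the trend removed before the G-test. The 12 h calls by both tests numbered 4 when only probe sets with a mean of 100 or more were tested, against 2, and the 12 h components in limma 6 in CT18 to CT41 alone, against 23. An 8 h rhythm was called by both tests in 1 member on linear values, against 0, and in limma in 3 with quantile normalization, 0 in CT18 to CT41 alone and 1 in CT42 to CT65 alone, against 6. The interaction with cycle was called in 4 members with quantile normalization, 11 with only probe sets of a mean of 100 or more tested and 0 without CT60 to CT65, against 7. The level differed between cycles in 28 members with quantile normalization and 22 without CT60 to CT65, against 52. Settings that use fewer pools have less data, and the causes of the other changes were not tested. Of the 33 genes named by rule, Slc4a2 lost its 24 h component without CT60 to CT65, Slc4a2 and Slc35d1 in CT18 to CT41 alone and Slc22a30 in CT42 to CT65 alone, and none of the 33 changed its call with quantile normalization. Genes without a 24 h component over all pools gained one under some settings: Slc31a1 with a common 75th percentile (adjusted p = 0.00162) and with all probe sets averaged (1.66e-05), Slc3a2 without the linear trend (0.0436) and in CT42 to CT65 alone (0.000483), Slc2a1 in CT42 to CT65 alone (0.00326), and Slc26a1 there (0.000670) and without CT60 to CT65 (0.0498). The stretch CT42 to CT65 includes the last 6 pools. Without CT60 to CT65, the adjusted p in limma was 0.125 for Slc3a2 and 0.361 for Slc2a1. The level comparison matches the 24 hours of the day between the cycles, and no other pairing was tried. The dimmest probe sets are limited by their signal over background, and 1 pool per hour limits every peak time.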

Other observations

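Other carriers of the liver fell outside the 88. Of the other 194 solute carriers of the pattern, with a mean under 1000, 14 were called 24 h by both tests (7.22%), against 9.98% of all probe sets. The brightest called one was Slc39a10, a zinc importer of the plasma membrane, with 382 at CT34, a median of 933 and 2291 at CT50, a peak at CT19.8 and an amplitude of 0.54 ± 0.084. Slc23a2, the vitamin C carrier SVCT2, had 404 at CT24, a median of 480.4 and 1444 at CT31, and peaked at CT6.90 (adjusted p = 2.54e-10), whereas the member Slc23a1 had no 24 h component.

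Among 12 organic anion transporters of the Slco family, 4 were called 24 h (33.3%). The background was 9.98% of all probe sets and 31.5% of genes with a mean of 1000 or more. In limma a 24 h component passed in 9 of the 12, but in only 3 without CT60 to CT65. The background in limma was 47.4% of all probe sets and 69.7% of those genes, and 21.9% and 61.3% without these pools. Slco1a4 had 6902 at CT24, a median of 14207 and 27237 at CT37, and peaked at CT11.6 ± 0.431 (adjusted p = 9.97e-08). Slco1b2, which takes up bile acids and drugs in hepatocytes, had 135652 at CT42, a median of 167465 and 249041 at CT61, and peaked at CT9.50 ± 0.465 with an amplitude of 0.20. Slco2a1, the prostaglandin carrier, had 2218 at CT61, a median of 9235 and 12612 at CT27, and peaked at CT3.37. Slco1c1 was called with an amplitude of 0.028 at a mean of 59.5, near the background. Slco1a1 had 38157 at CT37, a median of 49176 and 70461 at CT61, and its 24 h component did not pass (adjusted p = 0.0904).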
